A study of Schizosaccharomyces pombe with 4 samples.

Results

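The comparison described here set the H3K9me3 array of the Schizosaccharomyces pombe strain labelled IRD2 against that of the strain labelled WT, so 2 of the 4 arrays of the series enter it. They were chosen by their titles, not by any measured value. H3K9me3 is histone H3 trimethylated at lysine 9, and it was mapped by chromatin immunoprecipitation hybridised to an Agilent tiling array (ChIP-chip). Per the labels, all 4 strains (WT, IRD1, IRD2 and IRD3) were in exponential growth at 32 °C and were fixed in 3% paraformaldehyde. Their chromatin was sheared to fragments of 400 to 600 bp and precipitated with antibody ab8898. All 4 titles carry the further tag REIID. The labels spell out neither this tag nor the genetic change behind the IRD names, and they do not say whether a strain is 1 clone.

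There was 1 array per strain, and the differences below come with no replicate check, no error between cultures and no p-value. Values are log2 ratios of precipitated (red channel) over whole-cell extract DNA (green channel, the input), shifted so that the array's median genomic probe is 0. Parentheses after a median give the lower and upper quartile of the probes, which describe the spread along a region. A difference is always IRD2 minus WT, taken probe by probe. IRD1 and IRD3 are given as levels where they help to place a value. The distance between the quartiles of the arm probes was 0.94 in IRD1 and 1.05 in IRD3, against 1.13 in WT and 1.16 in IRD2. The levels of IRD1 and IRD3 were not rescaled for this. The WT array is on 1 side of every difference, and what belongs to it alone cannot be told apart from what belongs to IRD2 except by those levels.

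In fission yeast, H3K9me3 is made by the methyltransferase Clr4 and read by chromodomain proteins such as Swi6, the HP1 homologue. It marks the heterochromatin of the pericentromeric repeats, the chromosome ends and the silent mating-type region, where unexpressed copies of the mating-type cassettes are stored between boundary repeats. Clr4 can also bind the mark that it makes, so heterochromatin can spread along the chromosome until a boundary stops it.

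Each array held 41551 genomic probes, and 41361 of them lay on chromosomes 1 to 3 and on a separate contig of the array named mat. Of these, 40690 (98.4%) gave a ratio on both arrays. The median difference over these probes was -0.03 (-0.23 to 0.16). On the arms the differences had an SD of 0.32. The SD of their change between neighbouring arm probes, scaled down to that of a single probe, was 0.18. Along the chromosome arms 90.7% of 39722 probes differed by less than 0.5. Probes of mitochondrial DNA, which carries no histones, read -1.66 in WT and -2.00 in IRD2. Their median difference of -0.34 was of the same sign as several falls below, and its part in them was not tested. Positions are those written in the probe names. The files name neither a genome build nor a gene, so regions are given by position.

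Probes with the highest H3K9me3 were lower in IRD2. To sort probes without using either array, they were binned by the mean level of IRD1 and IRD3. The 214 probes at or above 6 had a median of 6.48 in WT and 5.96 in IRD2, and differed by -0.54 (-0.68 to -0.43). Of these, 1 was higher in IRD2, against 46.2% of all probes. The 161 probes from 5 to 6 differed by -0.40 (-0.64 to -0.18). From 4 to 5, the 205 probes read 4.15 in WT and 4.44 in IRD2 at the median, and the difference was 0.33 (0.03 to 1.55). IRD1 and IRD3 were above WT at many of the places where IRD2 was, so probes low in WT entered this bin through the way it was made, and its rise says nothing of its own. The bin from 3 to 4 differed by 0.02, with 39 probes higher and 36 lower, that from 2 to 3 by -0.10 and that from 1 to 2 by -0.07. Probes between -1 and 1 stayed close to 0, at -0.02 in both bins. The input of the probes at or above 6 was 0.28 higher in IRD2, and their precipitated signal was 0.26 lower, so the fall of the ratio was shared between the channels.

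By position, the falls and the rises lay in different domains. Domains were drawn from the mean of IRD1 and IRD3, and the WT array gave the same limits for all 13 runs. The mating-type domain and the centromeric repeats were lower in IRD2, the inner parts of several chromosome ends were higher, and the arms were level (-0.03). Of all probes, 128 were lower by 1 or more (0.315%). On the arms lay 100 of them, in the centromeric cores (the probes between repeat runs) 13 and in the mating-type domain 11. These were 0.25% of the measured arm probes, 12.5% of the core probes and 15.5% of those in the mating-type domain. Of the 13 core probes, 11 were at centromere 3.

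**Figure D1:**
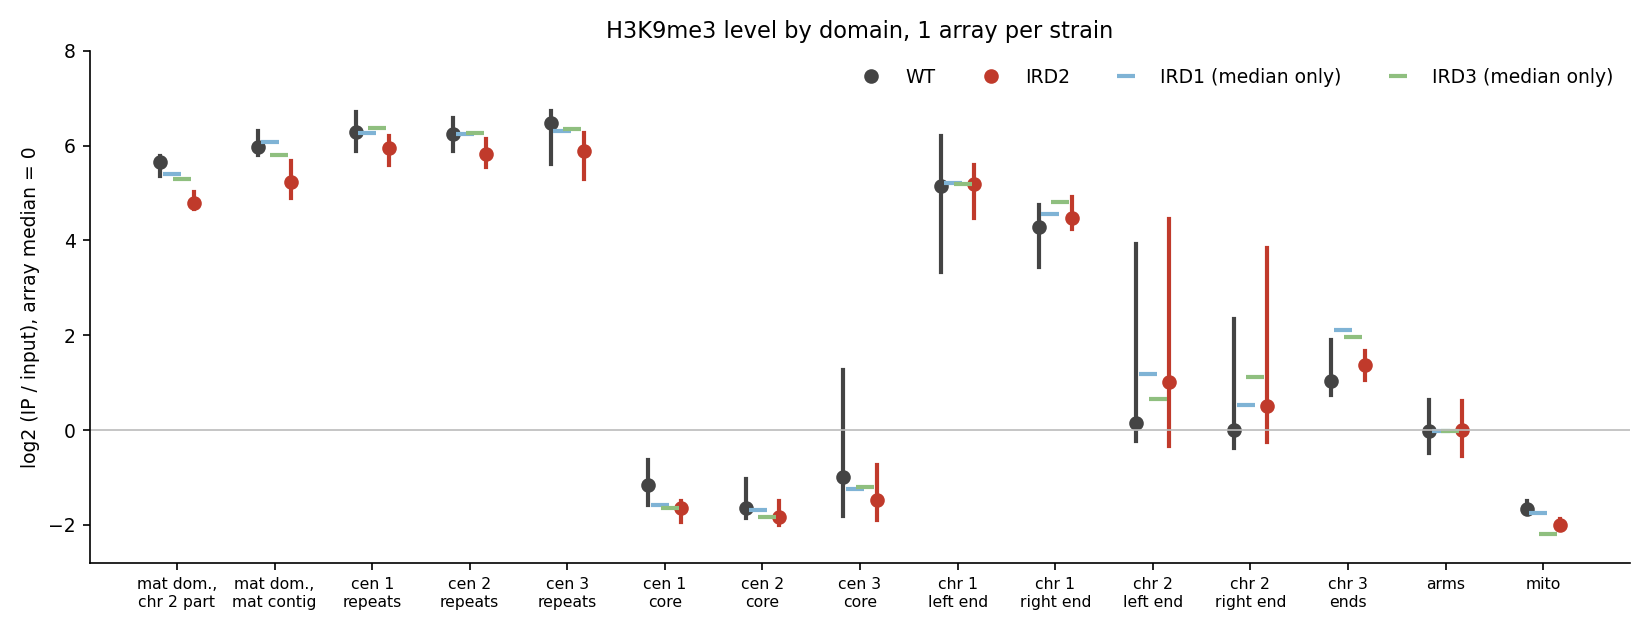
H3K9me3 level (log2 of precipitated over input DNA, array median at 0) in each domain. Dots are medians over probes for WT (grey) and IRD2 (red) with bars from the lower to the upper quartile, and short blue and green lines are the medians of IRD1 and IRD3. At the mating-type domain (mat dom.) the IRD2 medians of 4.79 and 5.24 sit below those of all other strains, and at the ends of chromosome 2 they sit above WT.

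The mating-type domain comprised 2131200 to 2138400 on chromosome 2 and 2 runs of the mat contig, 4200 to 5400 and 19800 to 39300. Its median was 5.88 (5.56 to 6.16) in WT and 5.07 (4.77 to 5.46) in IRD2, with 5.90 in IRD1 and 5.69 in IRD3. The difference was -0.68 (-0.93 to -0.53) over 71 probes, on a log2 scale. IRD2 was thus the lowest of the 4 strains, and 1 of the 71 probes was higher in it than in WT. The part on chromosome 2 gave -0.70 over 19 probes and the mat contig -0.64 over 52. Input in the domain was 0.21 higher in IRD2 and the precipitated signal 0.43 lower. Whether the contig reads the same DNA as chromosome 2 was not tested, because the files give no probe sequences.

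With median centring, the loss was deepest next to the borders. On the contig, the 10 measured probes from 19800 to 24300 fell from 5.87 to 4.83, with a median difference of -1.08 (-1.20 to -0.98). The 15 probes from 28200 to 33300, in the middle, fell from 6.46 to 6.09, with a median of -0.44 (-0.61 to -0.38). The 3 probes from 38100 to 39000, at the right border, fell by 1.38, 1.15 and 1.07. The precipitated signal alone showed this order too, at -0.94 at the left border, -0.19 in the middle and -0.93 at the right border. On chromosome 2 the 3 kb segments gave -0.93, -0.66 and -0.97 from left to right. These borders and the middle were picked after the profile had been seen, so the gradient is a description. It did not hold under loess normalization, which gave -0.98 at the left border of the contig, -2.42 in the middle and -3.05 at the right border. In WT the contig's left border and middle differed by less, 5.87 against 6.46, than in IRD2, 4.83 against 6.09.

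Just outside the domain IRD2 was higher. At the 3 probes left of the edge on chromosome 2, from 2130300 to 2130900, IRD2 read between 3.71 and 4.41. WT read between 1.24 and 1.99, IRD1 between 1.58 and 2.72, and IRD3 between 1.33 and 2.07. No value of another strain reached that of IRD2, which was higher than WT by 2.47, 3.11 and 2.42. The next 5 probes outward were higher by a median of 0.42, with all 5 above WT, and the difference shrank step by step from 0.62 at 2130000 to 0.29 at 2128800. On the right, the 4 probes from 2138700 to 2139600 rose by 0.91, 1.09, 0.97 and 0.61. The 10 probes after them differed by -0.04, and from 2142900 on, over 8 probes, the median difference was -0.43 with 0 probes higher. On the contig, the probe at 19200 read 4.32 in IRD2 and 1.68 in WT, and the 3 probes from 39600 to 40200 rose by a median of 0.97. The 6 probes from 17100 to 19200 differed by a median of 0.51, and 1 of them was higher by 1 or more. All these contig probes have names ending in f or m, letters that the files leave unexplained. Whether they read the same DNA as chromosome 2 was not tested.

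**Figure D2:**
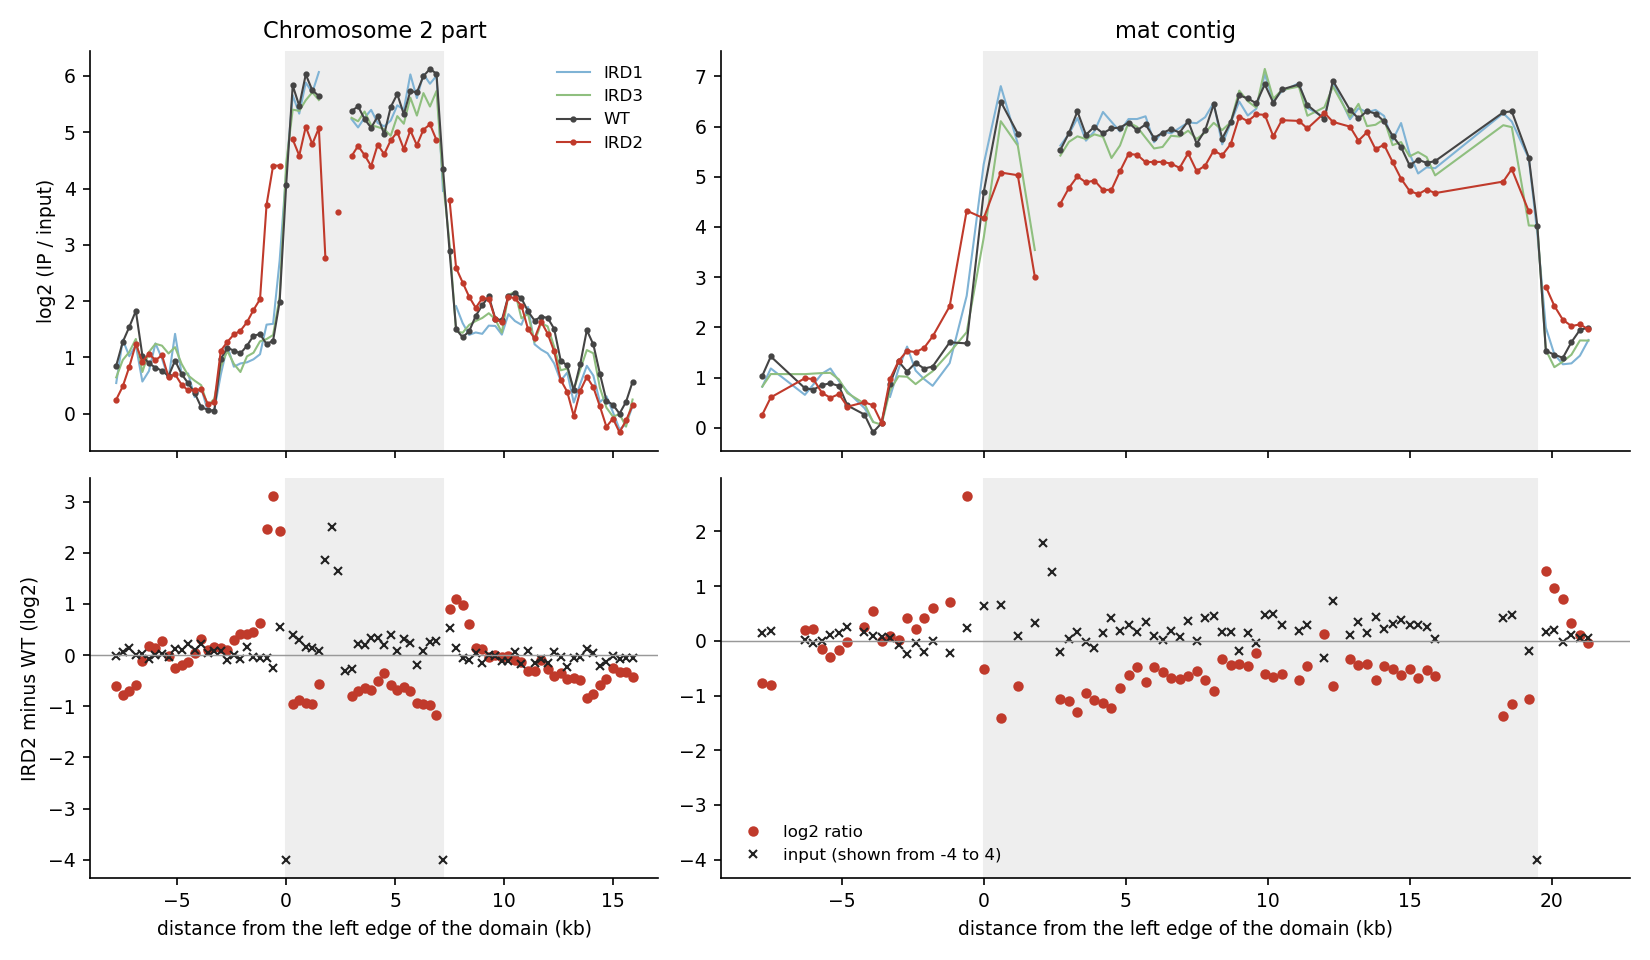
The mating-type domain on chromosome 2 (left) and on the mat contig (right), by distance from the left edge of the domain in kb, with the domain shaded. The upper panels give log2 of precipitated over input DNA for the 4 strains, and the lower panels the difference IRD2 minus WT of that ratio (red) and of the input (crosses, drawn at -4 where lower). IRD2 lies below WT inside the domain and above it within about 1 kb outside, and the crosses at -4 are probes whose input is lost at the edges. Crosses above 1 are probes with almost no input on either array.

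At both edges on chromosome 2 and at the right edge of the contig run from 19800 to 39300, the rise and the fall met at probes whose DNA was missing. At the left edge of that run no probe was called as missing. Input reads how much of a sequence is in the chromatin, with or without the mark. Over 41340 probes, 3 had an input lower by 2 or more in IRD2 (0.00726%), and all 3 lay at an edge of the mating-type domain. The names of all 3 end in f, and whether they read the same sequence was not tested. At 2131200 on chromosome 2, the first probe inside the left edge, input was -8.16 in IRD2 and -0.33 in WT. At 2138400, the last probe inside the right edge, it was -7.95 and -0.33. At 39300 on the contig, again the last probe inside the edge, it was -7.89 and -0.16. IRD1 and IRD3 kept input between -0.37 and -0.01 at these 3 probes. Taking the lowest input signal marked above background among spots not marked as outliers as the floor, the DNA was at least 109.9-fold, 109.5-fold and 123-fold lower in IRD2. The precipitated signal fell with it, from 3.60 to -5.50, from 3.88 to -3.76 and from 3.73 to -4.92. No ratio was used at these probes: input at 2 of them was not above background, and the red spot at 2138400 was marked as uneven although its input was still marked above background. The neighbouring probes 300 bp away kept their input, with differences between -0.19 and 0.54. Another 9 probes had almost no input on any of the 4 arrays, among them 2133000 to 2133900 on chromosome 2 and 21600 to 22200 on the contig, so these gaps do not set IRD2 apart.

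The centromeric repeats fell less than the mating-type domain. WT read 6.38 (5.82 to 6.70) and IRD2 5.90 (5.52 to 6.22), with 6.27 in IRD1 and 6.34 in IRD3. The difference was -0.45 (-0.56 to -0.29) over 197 probes, of which 6 were higher. By chromosome it was -0.43 over 59 probes at centromere 1, -0.41 over 45 at centromere 2 and -0.48 over 93 at centromere 3. Of the 197 probes, 182 have names ending in an f or m that the files leave unexplained, and the other 15 gave -0.20. By centromere these others gave 0.001 over 2 probes, -0.35 over 5 and -0.11 over 8, in the order 1 to 3. Input over the repeats was 0.18 higher in IRD2 and the precipitated signal 0.22 lower. With IRD2 scaled so that its centromeric level equals that of WT, the mating-type domain was still lower, at -0.25.

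The cores, here all probes between the repeat runs of a centromere, carried little of the mark in either strain at the median. They take in the central core, where the histone H3 variant of the kinetochore replaces much of the canonical histone. At centromeres 2 and 3 the repeats formed several runs, so other gaps between runs are counted as core too. Their median was -1.21 in WT and -1.70 in IRD2. The difference of -0.31 (-0.68 to -0.12) over 104 probes was close to that of the mitochondrial background. Centromere 3 held an exception. From 1095000 to 1096500 the window median was 1.49 in WT and -0.79 in IRD2, a difference of -2.28 that all 5 probes shared. IRD1 and IRD3 read -0.84 and -0.55 there, so it was WT that stood apart. The neighbouring window from 1093500 fell by 1.49. In each of these 2 windows all 5 probes carry the suffix f or m. Input in the first of these windows was 0.42 higher in IRD2 than in WT.

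The arms beside the centromeres were also slightly lower in IRD2. Within 20 kb of a centromere the median was 0.86 in WT, 0.62 in IRD2, 0.72 in IRD1 and 0.87 in IRD3. The difference was -0.21 (-0.45 to -0.04), and 320 probes were lower and 72 higher, against 53.8% lower among all probes. Pooled over the centromeres, it was -0.19 from 20 to 50 kb, -0.14 from 50 to 100 kb, -0.09 from 100 to 200 kb and -0.01 beyond 400 kb. The single centromeres did not narrow in step: from the first 20 kb to the next zone the difference went from -0.29 to -0.10 at centromere 1, from -0.13 to -0.25 at centromere 2 and from -0.17 to -0.23 at centromere 3. Input within 20 kb differed by 0.06. At each distance up to 100 kb IRD2 had the lowest median of the 4 strains. In segments of 100 kb along the arms, 4 of 126 differed by 0.2 or more, and 3 of these 4 lay beside a centromere, at -0.20 to -0.26.

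At the ends of chromosomes 1 and 2, IRD2 was higher over inner zones, while the outermost DNA was lower at chromosome 1 and higher at chromosome 2. The outer 40 kb of chromosomes 1 and 2 together differed by 0.17 (-0.16 to 0.89) over 454 probes, a median that describes no end well. The 202 probes higher by 1 or more (0.496% of all probes) comprised 105 at chromosome ends and 95 on the arms, 36 of which were within 60 kb of an end. Such probes made up 22.9% of those measured in the outer 40 kb of chromosomes 1 and 2, and 0.24% on the arms.

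The right end of chromosome 1 carried the longest stretch of gained mark. From 5524500 to 5542800, an unbroken run of 62 measured probes was higher by 1 or more in IRD2, chosen as the longest such run. The median was 0.55 in WT, 3.87 in IRD2, 3.40 in IRD1 and 4.25 in IRD3. The difference was 2.86 (2.25 to 3.47), or 7.24-fold, and it came from the precipitated signal, which was 2.70 higher, while input was 0.14 lower. Only 5 of these probes carry the suffix f or m. In bins of 3 kb, WT fell below 3 at 33 kb from the last probe and IRD2 at 48 kb. From 39 to 42 kb WT read 0.61 and IRD2 4.14, and from 45 to 48 kb they read -0.16 and 3.13. Beyond 54 kb the strains were close again, at -0.19 and 0.03. At every bin from 36 to 51 kb the order was IRD3, IRD2, IRD1 and WT from high to low.

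The other 3 ends shared a pattern of their own. On the left of chromosome 1, the zone from 21 to 30 kb rose from 3.11 to 4.88, a difference of 1.76 (1.57 to 2.15) with 27 of 27 probes higher. The zone from 30 to 36 kb changed little, at 0.21, and that from 36 to 42 kb rose from 0.05 to 1.40. On the left of chromosome 2, the outer 6 kb rose from 3.04 to 4.84, with 17 of 17 probes higher and a difference of 1.83. The next zone, to 15 kb, differed by 0.17, and 5 probes from 15 to 21 kb rose from -0.05 to 1.57. On the right of chromosome 2, the outer 3 kb rose by a median of 1.33 to 4.59, the zone to 12 kb differed by 0.12, and that from 12 to 18 kb rose from 0.03 to 1.29. Each end thus showed a partly marked zone that filled, a marked zone that held and an inner zone that rose to a low level. IRD1 read 4.96, 5.02 and 4.82 in the 3 filled zones and IRD3 read 4.43 in the first and 4.37 in the last, all above WT. In the 3 inner zones IRD1 read 1.17, 1.18 and 1.10 and IRD3 read 1.01, 0.98 and 0.98, again above WT. Loess normalization turned several of these zones, to -0.017 and -0.48 in the filled zones of chromosome 2 and to -1.29, -0.91 and -1.01 in the zones that held. Most of these probes carry the suffix f or m (24 of 27, 17 of 17 and 10 of 10 in the filled zones), and whether the 3 ends read shared sequence was not tested. The filled zones also had less input in IRD2, with medians from -0.46 to -0.41, and the part of this in the rise was not tested. The precipitated signal there was higher, by 1.42, 1.40 and 0.88.

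The outermost DNA of chromosome 1 went the other way. The outer 9 kb on the left read 6.30 in WT, with a difference of -0.74 (-0.82 to -0.60), and 0 of 30 probes were higher. IRD1 and IRD3 read 6.19 and 6.21 there. On the right the outer 9 kb fell from 6.01 to 5.62, with a difference of -0.36 (-0.54 to -0.17). Input was 0.30 higher on the left and 0.11 higher on the right. At chromosome 3, whose ends carry the ribosomal DNA, the outer 20 kb read 1.04 in WT and 1.37 in IRD2, against 2.10 in IRD1 and 1.95 in IRD3. The difference there was 0.15 (-0.22 to 0.37), so IRD2 lay nearer to WT than to the other IRD strains.

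**Figure D3:**
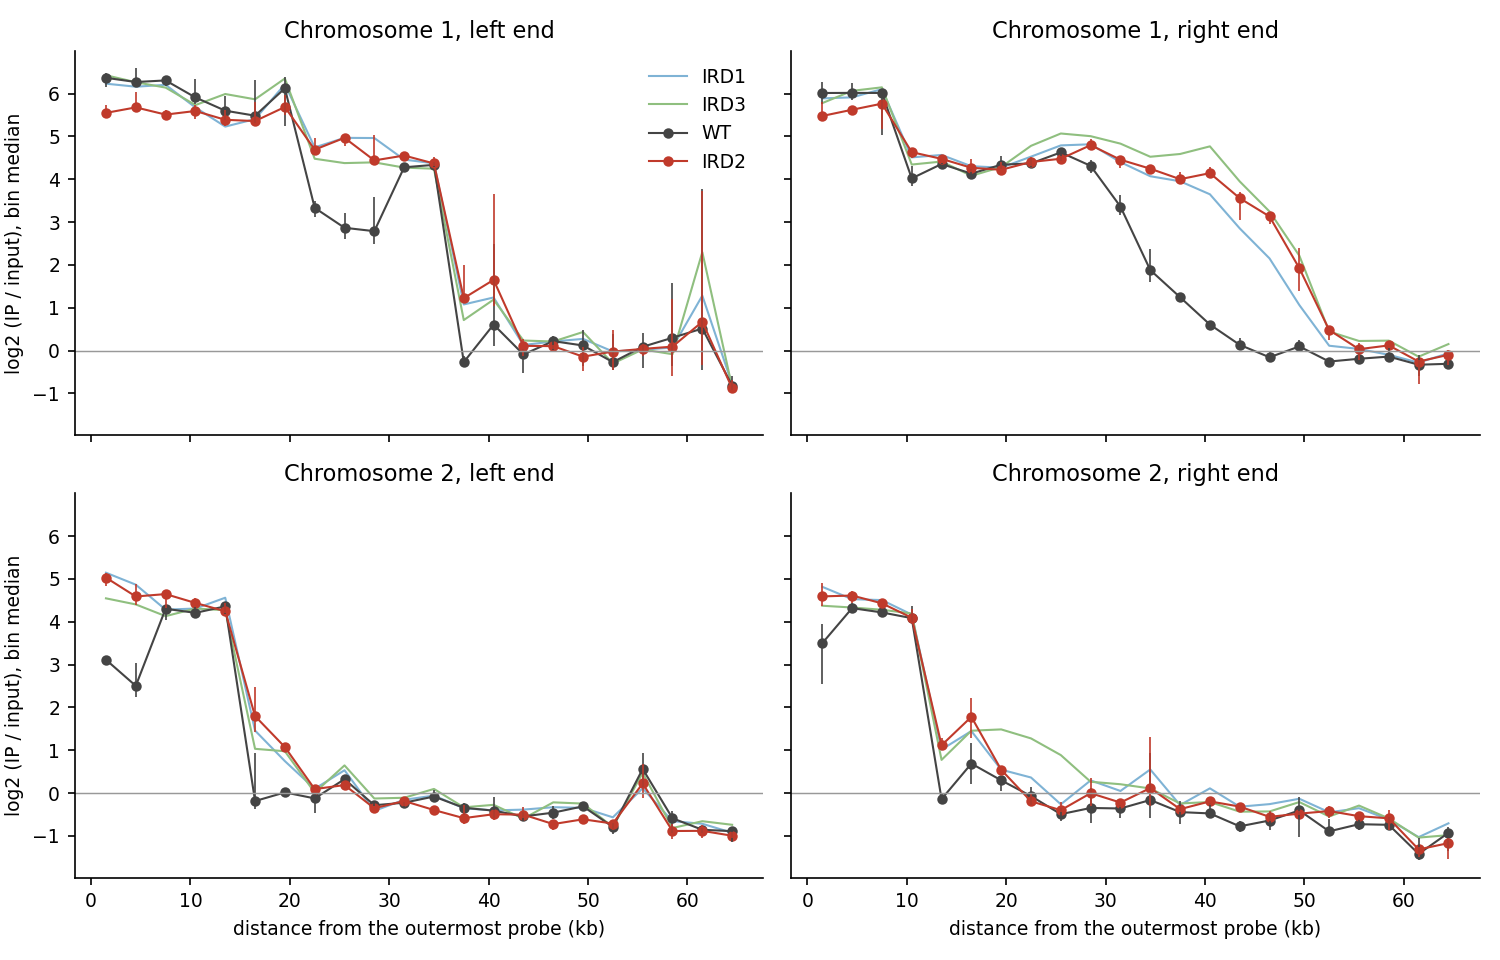
H3K9me3 level at the 4 ends of chromosomes 1 and 2 against the distance in kb from the outermost probe, in bins of 3 kb. Points and lines are bin medians for WT (grey) and IRD2 (red) with vertical bars from the lower to the upper quartile, and thin lines are the bin medians of IRD1 (blue) and IRD3 (green). On the right of chromosome 1 WT falls to 0.61 by 39 to 42 kb while IRD2 is still at 4.14, and at the other ends the dip of WT is filled in IRD2.

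Over the whole genome, large changes were few. Windows of 1.5 kb with at least 3 probes on both arrays numbered 8284. A window was called gained when its median was at least 1 in IRD2, under 1 in WT and higher by at least 1, and lost in the converse case. By this rule 14 windows were gained (0.169%) and 4 were lost (0.0483%). At the bare threshold, 950 windows were at least 1 in WT and 899 in IRD2, and 689 in both. Of the 14 gained windows, 8 formed 1 block at the right end of chromosome 1, 3 lay at its left end, 2 lay at the right end of chromosome 2 and 1 lay at 76500 on chromosome 2. In each of these 14 windows IRD1 and IRD3 were both nearer to IRD2 than to WT. The windows were called for a low value in WT and a high one in IRD2, and 8 of them adjoin. How often this holds among all windows was not counted. Of the lost windows, that from 1095000 in centromere 3 was low in IRD1 and IRD3 as well. With no regard to the level of 1, 35 windows rose by 1 or more (0.423%) and 13 fell (0.157%). Within 60 kb of a chromosome end lay 30 of the 35. Many of these windows adjoin one another, and the share of all 8284 windows lying this near an end was not counted.

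**Figure D4:**
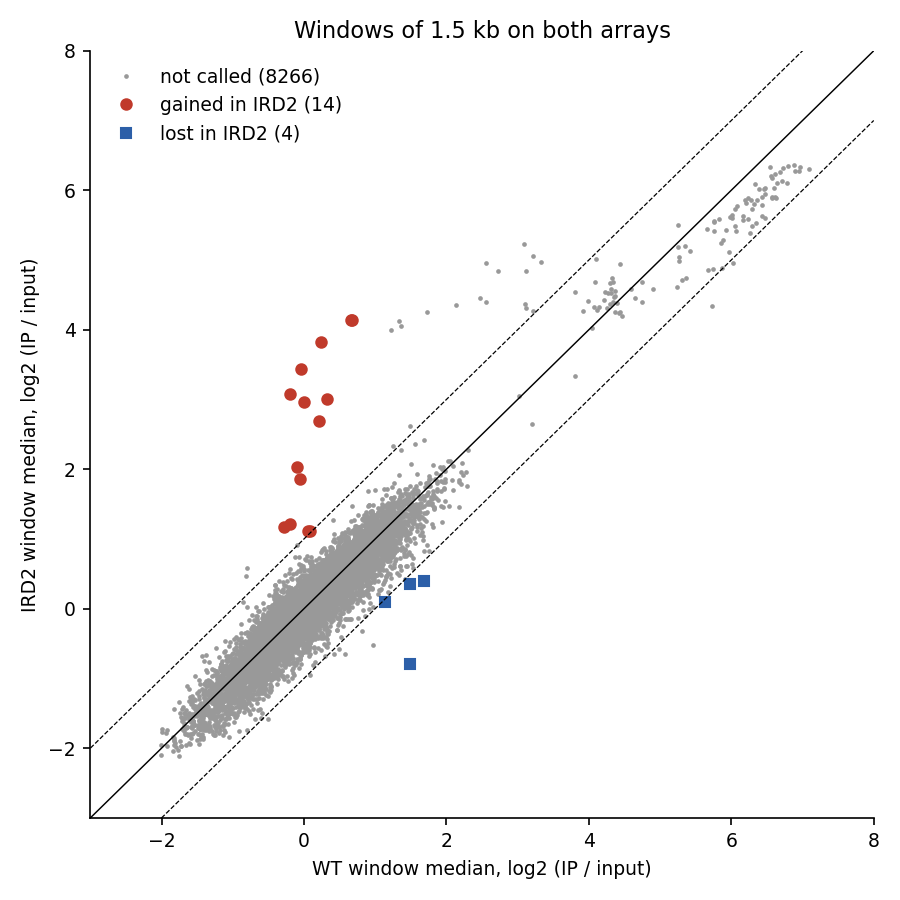
Median log2 of precipitated over input DNA in each of 8284 windows of 1.5 kb, WT on the horizontal and IRD2 on the vertical axis. The solid line marks equal levels and the dashed lines a difference of 1, with 14 gained windows in red and 4 lost windows in blue. The windows at the upper right, above 5 in WT, lie mostly below the line, and those lifted highest above it start near 0 in WT.

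The 10 largest rises outside the mating-type domain included 8 windows between 5527500 and 5539500 on chromosome 1. The largest, from 5532000 to 5533500, went from 0.24 in WT to 3.83 in IRD2, with 3.09 in IRD1 and 4.26 in IRD3. Its 5 probes rose by 3.51 to 3.82. Another lay next to the mating-type domain, from 2130000 to 2131500, at 1.36 in WT and 4.06 in IRD2, and holds the edge probes described above. The last lay at 76500 to 78000 on chromosome 2, where 4 probes from 76200 to 77100 formed a small island. They read 0.32, 0.39, 0.22 and 0.00 in WT and 2.95, 2.97, 3.08 and 2.98 in IRD2. IRD1 and IRD3 were high there too, with medians of 2.55 and 3.66. Probes within 1.5 kb to either side differed by medians of -0.02 and 0.15. The nearest of them were still higher in IRD2, by 0.66 at 75900, 0.47 at 77400 and 0.55 at 77700. All 4 probes of the island carry an f in their suffix. In 9 of the 10 windows both IRD1 and IRD3 were nearer to IRD2 than to WT, and the exception was the window beside the mating-type domain. The share of all windows for which this holds was not counted.

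The 10 largest falls were smaller and more scattered, and all 5 probes fell in each of them. After the pair in centromere 3 came 115500 to 117000 on chromosome 3, at 5.73 in WT and 4.34 in IRD2. The next was 4102500 to 4104000 on chromosome 1, which went from 1.69 to 0.39, with 1.99 in IRD3. The others were 2 adjoining windows from 3646500 on chromosome 1 (-1.06 and -1.23) and 1728000 on chromosome 2 (-1.13). The list ended with 1879500 on chromosome 3 (-1.13), 2088000 on chromosome 2 (-1.08) and 3502500 on chromosome 1 (-1.08). In 7 of the 10, both IRD1 and IRD3 were nearer to WT than to IRD2, and in the 2 windows of centromere 3 both were nearer to IRD2. The matching shares over all windows were not counted.

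Outside the domains, 13 short runs of the mark, called islands here, were found in the mean of IRD1 and IRD3, each with at least 3 probes at or above 2 and gaps of up to 600 bp. The list includes part of the raised stretch on chromosome 1 and the island at 76200 on chromosome 2. It also includes a run from 3786300 on chromosome 1 that begins 300 bp from the repeats of centromere 1 (-0.10). Their differences had a median of -0.06, and 6 of the 13 lay within 0.2 of 0. The islands above 4.9 in WT were lower in IRD2. That at 115500 to 116700 on chromosome 3 read 5.02, 5.85, 5.95, 5.73 and 5.68 in WT and 4.22, 4.48, 4.32, 4.34 and 4.43 in IRD2. IRD1 and IRD3 were at WT level, 5.69 and 5.70. Input over this island was 0.51 higher in IRD2 and the precipitated signal 0.84 lower. Its flanks went the other way: the probe at 115200 read 0.48 in WT and 1.83 in IRD2, and that at 117000 read 0.23 and 1.53. Both flanks were raised in IRD1 as well (2.58 and 1.98) and not in IRD3 (0.18 and -0.23). At 117000 the input was lower in IRD2 by 0.90, at -1.25 in both IRD2 and IRD1 against -0.35 in WT and -0.48 in IRD3.

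The island at 275400 to 276900 on chromosome 3 fell from 5.98 to 5.28, a difference of -0.75 over 6 probes. On chromosome 1, that at 4907700 to 4908300 fell by 0.58, and on chromosome 2 that at 2115900 to 2117700, left of the mating-type domain, fell by 0.48. Against these, the island at 2340600 to 2341200 on chromosome 2 rose from 1.99 to 3.26, with 3.51 in IRD1 and 3.66 in IRD3. Weaker islands differed less: 1761900 on chromosome 1 by -0.06, and 2814600 on chromosome 2 by -0.04. That at 21900 on chromosome 3 was at 1.47 in WT and 1.48 in IRD2, against 2.53 in IRD1 and 2.66 in IRD3. Islands were picked by their level in IRD1 and IRD3, so the higher values of these strains there say nothing of their own.

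Among all probes, input was higher by 1 or more at 30 (0.0726%) and lower by 1 or more at 4 (0.00968%), and a single region stood out. From 92700 to 102600 on chromosome 2, 26 measured probes, all with the suffix f or m, had input higher in IRD2 by 0.98 to 1.74. The precipitated signal rose with it by a median of 1.27, and the H3K9me3 ratio was -1.01 in WT and -0.96 in IRD2, a difference of 0.05. The same probes were higher in input than WT by 1.24 in IRD1 and 0.96 in IRD3, so the block set WT apart from the other 3 strains. In the 6 kb to the left and right, the input difference was -0.02 and 0.08. The number of copies of this DNA was not measured otherwise, and other sequence that these probes may read was not tested.

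**Figure D5:**
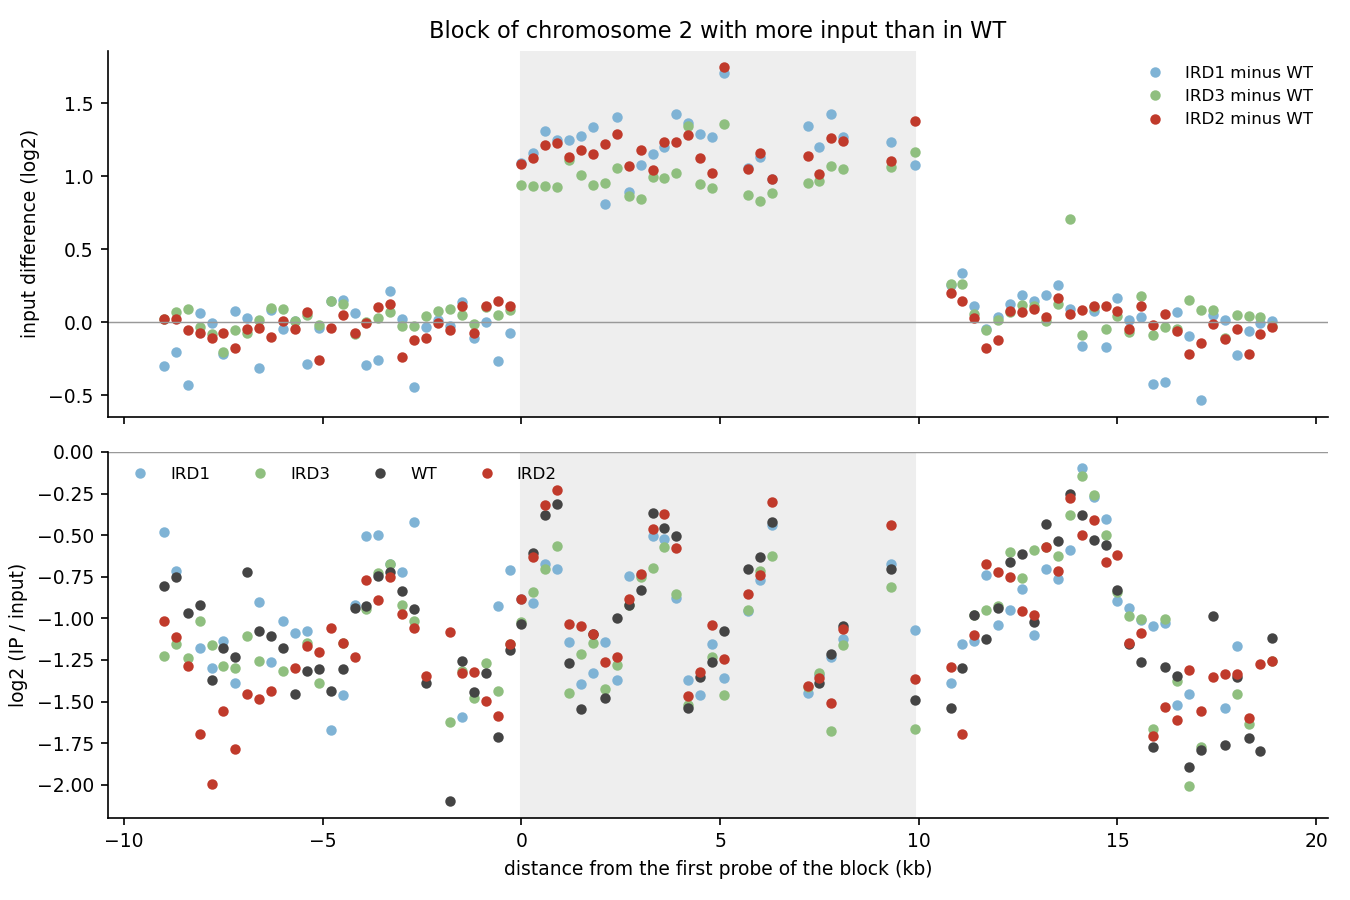
The block of chromosome 2 with more input than in WT, by distance in kb from its first probe, with the block shaded. The upper panel gives the log2 difference in input of IRD1, IRD2 and IRD3 from WT, and the lower panel log2 of precipitated over input DNA in all 4 strains. Input in IRD2 is higher by 0.98 to 1.74 across the block and near 0 beside it, and the ratios of the strains overlap.

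Input was higher by 2 or more at 2 probes (0.00484%), both on chromosome 2, and both were single spots. At 161700 the ratio was 3.90 in IRD2 and -0.92 in WT, with input 3.44 higher. At 2709300 the ratio was 5.45 and 0.12, with input 3.48 higher. The ratios of their neighbours 300 bp away differed by -0.07 to 0.06, so neither spot was shared by the adjoining probes.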

How the data were processed

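Per the file headers, the deposited intensity values come from Agilent Feature Extraction 12.0.3.1, as background-subtracted and dye-normalized processed signals, and all 4 arrays shared 1 slide and 1 scan. Per the labels, precipitated DNA carried Cy5 and whole-cell extract DNA Cy3. The deposited value table holds the uncentred linear ratio of red over green, with column medians of 1.11 in both WT and IRD2, and served as an alternative.

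Ratios were log2 of red over green, centred on each array's median. The 1417 control spots, outlier spots (1.12% in WT, 0.54% in IRD2, 7.35% in IRD1 and 4.30% in IRD3, from which domains, bins and islands were drawn) and probes without input above background were left out. Strains were taken from titles, since genotype and antibody entries of IRD1 and IRD3 are exchanged. Domains required a 5-probe running median of 3, joined over gaps up to 3 kb. Named windows are the 10 largest rises and falls outside the mating-type domain. Members, regions and lists were chosen with earlier results of these data known. Window calling was tested on simulated data. Python 3.11.15, pandas 2.3.3, R 4.3.3 and limma 3.58.1 were used. Alternatives covered background correction, loess, centring, scaling, filters and window size. No sequences are shown, because the files give none; the genome build is not given in the sources used here.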

Additional observations from a re-analysis of the deposited data

Results flagged for a closer look

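Among contigs outside the chromosomes and the mat contig, the probe at 3000 of contig pNSU65 had input at -7.59 in WT and -0.79 in IRD2, a difference of 6.80. It came from data that the comparison did not use, and WT, the control strain, had the lowest input of the 4 arrays although the spot was still marked above background. The H3K9me3 ratio there differed by -0.03. IRD1 and IRD3 read -0.88 and -0.68 there. Probe 3300 of the same contig differed by 3.37, and probes 3000 and 3300 of contig pNSU21 by 3.80 and 4.64. The precipitated signal at probe 3000 of pNSU65 differed by nearly as much, at -2.72 in WT and 4.09 in IRD2.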

How the results depend on the processing

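No paired analysis was possible because each strain had 1 array and the labels give no replicate numbers. A value counted as moved when it shifted by more than the scatter between neighbouring probes (0.18), and a count when it changed by over 1.5 times. Loess within each array, which treats any trend of the ratio with brightness as a dye effect, gave 11 gained and 20 lost windows against 14 and 4. It gave -1.89 for the mating-type domain, -2.59 for the centromeric repeats and -0.19 for the subtelomeres. It also turned 3 zones: 30 to 36 kb on the left of chromosome 1 (-1.29), and the outer zones of chromosome 2 (-0.017 left, -0.48 right). Scaling IRD2 to the WT centromere level gave -0.25 for the mating-type domain, 0.045 for the repeats (by construction near 0) and 0.42 for the subtelomeres. Under it 9 to 21 kb on the left of chromosome 1 (0.21), the outer 9 kb on its right (0.10) and the middle of the contig domain (0.031) changed sign. Without suffix f or m, 7 windows were gained and 1 was lost, and the repeats, down to 15 probes, read -0.20. Windows of 3 kb gave 8 gained and 2 lost, and a minimum difference of 1.5 left 1 lost. Means over probes gave 0.44 for the subtelomeres. The cause was not tested. The other 53 values for the 6 main results stayed, and so did 561 for single regions or windows, while 106 moved and 6 more reversed as given. Counting every change of sign, small values included, 33 of these single values turned, in 22 regions or windows. Loess also turned 6 to 15 kb on the left of chromosome 2 (-0.91), 3 to 12 kb on its right (-1.01), the ratio of its input block (-0.64) and the island at 21900 on chromosome 3 (-2.17). Restricting to probes measured on all 4 arrays was chosen after seeing the data.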

Other observations

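The 9 pNSU contigs of the array, which the labels and files do not place on a chromosome, read 3.84 in WT and 4.26 in IRD2, with 4.54 in IRD1 and 4.85 in IRD3. The difference of IRD2 from WT had a median of 0.07 (-0.36 to 0.71) over 126 probes. The inner side of the right end of chromosome 2, from 18 to 60 kb, was higher in IRD2 by a median of 0.23, with 105 of 138 probes higher. It read -0.52 in WT, -0.34 in IRD2, -0.17 in IRD1 and -0.09 in IRD3, so WT was the lowest strain. At the left end of chromosome 2, the stretch from 21 to 60 kb gave -0.14, with 33 of 102 higher; there the bin from 18 to 21 kb, left out of that stretch, held 1 probe, at 1.06.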
